A study of Homo sapiens with 6 samples.

Results

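The keratins and vimentin are among the proteins of the cytoplasmic intermediate filaments. The genes examined were KRT7, KRT8, KRT18, KRT19, KRT5, KRT15, KRT17, KRT80, KRT81 and VIM, taken as the probe sets that the platform annotation assigns to these symbols alone. Of the 10 genes named, 8 had a probe set there, with 13 probe sets among the 54613 on the array that are not controls. KRT17 and KRT81 were not analysed here, so the hair type among the members, KRT81, has no value and the basal type is represented by KRT5 and KRT15. The cells were MDA-MB-231, a widely used triple-negative breast cancer line, of human origin and mesenchymal shape. The 3 knockdown samples were puromycin-resistant single clones grown after retroviral delivery of a short hairpin RNA against WASF3, a WAVE family protein that drives branched actin growth, and the 3 control samples were puromycin-resistant single clones made with an empty vector or a hairpin against GFP. All 6 clones were at passage 4 and grew under selection with 1 μg/ml puromycin for 2 weeks before they were picked, and either of 2 hairpins was used, but which of these vectors went into which clone was not stated in the labels. Each clone was read on 1 Affymetrix array.

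Keratins form filaments only as pairs of an acidic type I chain (here KRT15, KRT18 and KRT19) with a basic type II chain (here KRT5, KRT7, KRT8 and KRT80). Simple and luminal epithelia are built on KRT8 with KRT18, joined by KRT7 and KRT19, while basal cells of stratified epithelia and of the mammary duct use KRT5 with KRT14, KRT15 or KRT17, and the hard keratins such as KRT81 belong to the hair shaft. Vimentin is the filament protein of mesenchymal cells and forms filaments from a single chain. Breast cancer lines of the mesenchymal kind often carry vimentin beside luminal keratins.

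The targeted gene was read at 5.40, 5.80 and 4.52 in knockdown clones 1, 2 and 3, against 6.77, 6.42 and 6.59 in control clones 1, 2 and 3, in log2 units of the RMA signal, a normalised array brightness on which a difference of 1 is a doubling. Its difference of −1.35 (SE 0.29) had an adjusted p of 0.102 in limma, a linear model fitted over all probe sets. The control arrays were closer to each other (correlation over probe sets 0.998 for each pair) than the knockdown arrays were (0.984 to 0.992), and knockdown clone 3 had the lowest correlations with the others. The 3′ minus 5′ signal of the GAPDH and ACTB controls, an index that follows RNA degradation, was 1.62 to 2.11 in knockdown clones and 1.13 to 1.47 in control clones, so it did not overlap between the groups. It was highest in knockdown clone 1. Markers set the background: 13 leukocyte and red cell genes that breast cancer cells should lack, called leukocyte markers here, had mean log2 levels from 3.23 to 6.30, with a median of 5.15. Their median on each array lay between 4.84 and 5.37 in knockdown clones and between 5.13 and 5.17 in control clones. The mesenchymal line markers had array medians of 11.6 to 11.9 in knockdown clones and 12.0 to 12.1 in control clones, and PTPRC, the pan-leukocyte antigen, averaged 3.23. Nothing states that the clones came from separate infections, so p-values measure the spread between these clones.

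On their brightest probe sets the means of the 4 luminal keratins were lower in knockdown clones by 0.38 to 0.58 on the log2 scale, and none of these differences passed the threshold over all probe sets. Each knockdown clone lay below each control clone there, by a margin between the groups of 0.03 (KRT7), 0.11 (KRT18), 0.12 (KRT19) and 0.20 (KRT8), while the groups overlapped on the other probe sets of KRT7 and KRT19. KRT8 and KRT18 together with KRT19 were lowest in knockdown clone 3 and nearest to the controls in knockdown clone 1. The basal keratins KRT5 and KRT15 had slightly higher means in knockdown clones with overlapping groups, KRT80 was spread over more than 1 log2 unit among the knockdown clones, and vimentin differed by 0.14 or less. Of the 13 probe sets, 0 passed in limma at an adjusted p under 0.05, where 0.558% of all probe sets passed. At an unadjusted p under 0.05, 4 were lower, where 6.79% of all probe sets were lower, and 0 were higher, where 7.25% were.

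**Figure D1:**
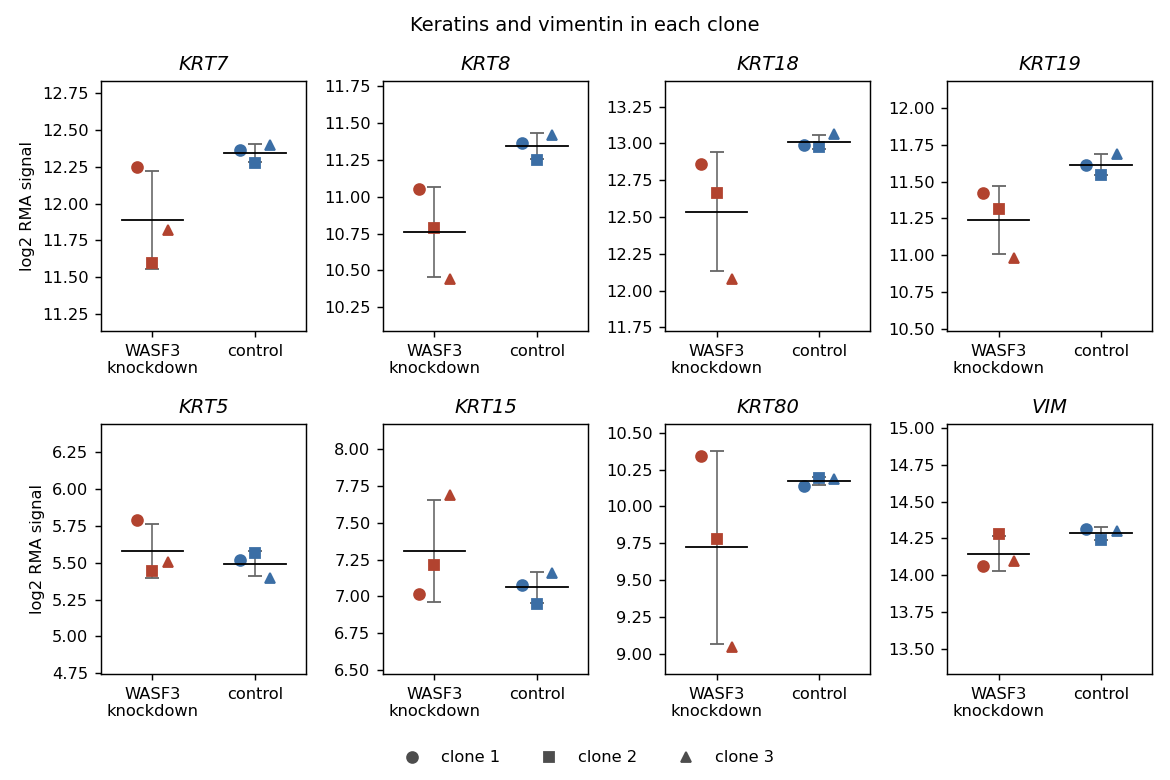
Log2 RMA signal of the probe set with the highest mean for each gene, with 3 knockdown clones (left, red) and 3 control clones (right, blue) as points, the group mean as a line and the SD as a bar. Each panel spans 1.7 log2 units, and the 4 luminal keratins in the top row show every knockdown clone below every control clone.

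KRT8, the type II chain of simple epithelia, had log2 signals of 11.05, 10.79 and 10.44 in knockdown clones 1, 2 and 3, against 11.36, 11.25 and 11.42 in control clones 1, 2 and 3. Every knockdown clone lay below the lowest control clone, and the third clone was the lowest. The group levels were 10.76 ± 0.31 in knockdown and 11.34 ± 0.09 in control clones (SD, n = 3 each), a difference of −0.58 (SE 0.16, adjusted p = 0.155 in limma). This corresponds to 66.7% of the control signal, with an unadjusted 95% interval of 51.9% to 85.7%. Without knockdown clone 1 the difference of KRT8 was −0.73 and passed (adjusted p = 0.0447), in a fit that called 1.2% of all probe sets lower. The KRT8 probe set has the suffix for probes that can match several transcripts, and KRT8 has processed pseudogenes, so its signal may hold more than this gene.

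KRT18, the type I partner of KRT8 and its immediate neighbour among protein-coding genes of chromosome 12, had signals of 12.86, 12.67 and 12.08 in knockdown clones 1, 2 and 3, against 12.99, 12.97 and 13.07 in control clones 1, 2 and 3. The groups did not overlap, and knockdown clone 3 stood 0.58 below the next clone. The level was 12.54 ± 0.41 in knockdown and 13.01 ± 0.05 in control clones, a difference of −0.47 (SE 0.19, adjusted p = 0.322), or 72.0% of the control signal. The same suffix and limit apply to its probe set. Without knockdown clone 3 the difference of KRT18 was −0.25 (adjusted p = 0.225), and without knockdown clone 1 it was −0.64 (adjusted p = 0.119). Set against the mean of the controls clone by clone, KRT8 differed by −0.29, −0.56 and −0.90 and KRT18 by −0.15, −0.34 and −0.93 in knockdown clones 1, 2 and 3, so both chains of the pair were lowest in the same clone.

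KRT19, a small type I keratin without a tail domain, had signals of 11.43, 11.31 and 10.98 in knockdown clones 1, 2 and 3, against 11.61, 11.54 and 11.69 in control clones 1, 2 and 3. Again no knockdown clone reached a control clone. The level was 11.24 ± 0.23 in knockdown and 11.61 ± 0.07 in control clones, a difference of −0.38 (SE 0.13, adjusted p = 0.252) or 77.1% of the control signal. Without knockdown clone 3 the difference of KRT19 was −0.25 (adjusted p = 0.207), and with the mean of its 2 probe sets it was −0.22 (adjusted p = 0.524). A second probe set of KRT19 averaged 4.33 ± 0.37 in knockdown and 4.39 ± 0.04 in control clones, within the range of the leukocyte markers, and differed by −0.06 (SE 0.18, adjusted p = 0.924).

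KRT7, the type II keratin of ducts and glands, had signals of 12.25, 11.60 and 11.82 in knockdown clones 1, 2 and 3, against 12.36, 12.28 and 12.40 in control clones 1, 2 and 3, on its brightest probe set. The groups were separated by 0.03 only, between knockdown clone 1 and control clone 2, and here clone 2 was the lowest. The level was 11.89 ± 0.33 in knockdown and 12.35 ± 0.06 in control clones, a difference of −0.46 (SE 0.16, adjusted p = 0.267) or 72.9% of the control signal. Without knockdown clone 1 the difference of KRT7 was −0.64 and passed (adjusted p = 0.0396), in a fit that called 1.2% of all probe sets lower. With the mean of its 4 probe sets the difference was −0.26 (adjusted p = 0.349). The 3 other probe sets of KRT7, with mean levels of 6.26, 4.39 and 3.09, lay inside or below the leukocyte range, overlapped between the groups and differed by −0.24, −0.28 and −0.08 (adjusted p = 0.495, 0.440 and 0.878).

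**Figure D2:**
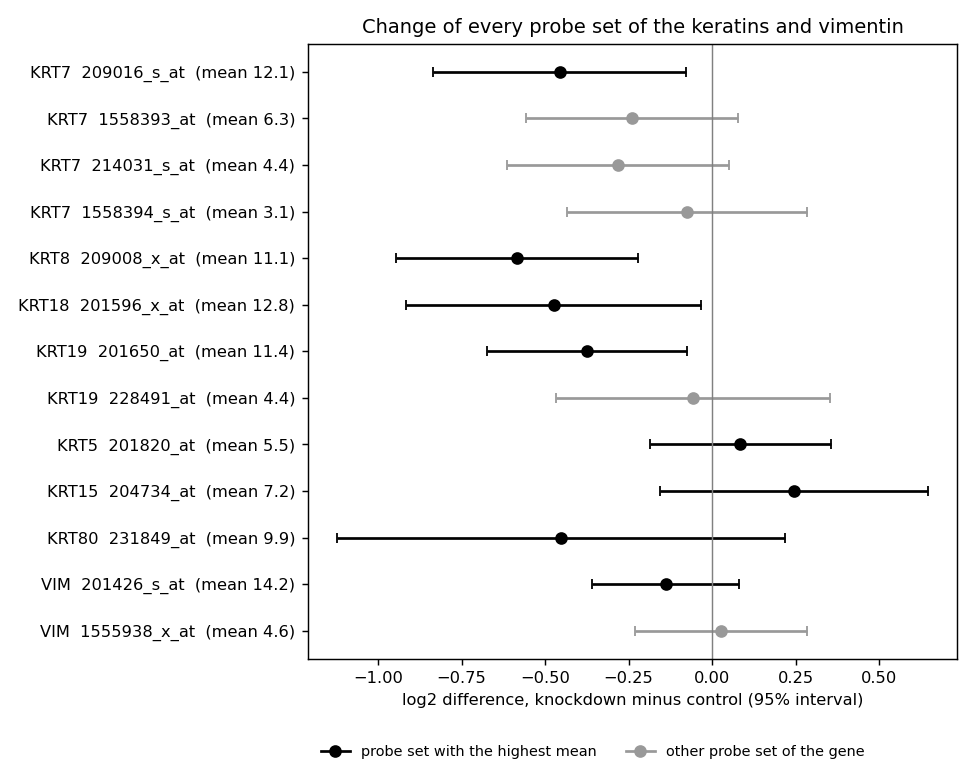
Log2 difference (knockdown minus control, n = 3 each) with its 95% interval from limma, unadjusted, for all 13 probe sets, with the brightest probe set of each gene in black and others in grey. The intervals of KRT7, KRT8, KRT18 and KRT19 on their brightest probe sets lie below 0, and those of the other probe sets cross it.

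Taken by gene on the brightest probe set, the groups did not overlap in 4 of the 8 genes, all lower in knockdown. Across the 19775 genes measured the same held for 12.6%, and for 17.1% of the 4014 genes with a mean log2 level of at least 9. The exact permutation test of each of these 4 keratins over the arrays gave p = 0.1, two-sided, the smallest that 3 against 3 allows. The luminal keratins had a median difference of −0.47, the 8 genes one of −0.41, and all genes one of −0.01. Without knockdown clone 3 the median of the 8 genes was −0.18.

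KRT5, the type II basal keratin, had signals of 5.79, 5.44 and 5.50 in knockdown clones 1, 2 and 3, against 5.52, 5.57 and 5.40 in control clones 1, 2 and 3. The groups overlapped, and all 6 values lay within the range of the leukocyte markers, so the gene is not shown to be above background. The difference of KRT5 was 0.08 (SE 0.12, adjusted p = 0.809, 95% interval −0.19 to 0.35). KRT15, a type I keratin of basal cells that lies next to KRT19 on chromosome 17 with 0 protein-coding genes between them, had signals of 7.02, 7.22 and 7.69 in knockdown clones 1, 2 and 3, against 7.08, 6.95 and 7.16 in control clones 1, 2 and 3. Knockdown clone 3 was the highest of all for KRT15, where it was the lowest for KRT19, and the other clones overlapped. The level of KRT15 was 7.31 ± 0.35 in knockdown and 7.06 ± 0.10 in control clones, a difference of 0.25 (SE 0.17, adjusted p = 0.591, 95% interval −0.15 to 0.65). Without knockdown clone 3 it was 0.05, and without knockdown clone 1 it was 0.39. Whether the luminal and basal keratins differed in their change was not tested.

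KRT80, a type II keratin found in many epithelia and related in sequence to the hair keratins, had signals of 10.35, 9.78 and 9.04 in knockdown clones 1, 2 and 3, against 10.14, 10.19 and 10.19 in control clones 1, 2 and 3. Knockdown clone 1 was above all controls and clones 2 and 3 were below them. The level was 9.72 ± 0.65 in knockdown and 10.17 ± 0.03 in control clones, so the difference of −0.45 (SE 0.29, adjusted p = 0.547) was smaller than the spread among the knockdown clones. Its 95% interval ran from −1.12 to 0.22. The difference of KRT80 was −0.76 without knockdown clone 1 (adjusted p = 0.117) and −0.11 without knockdown clone 3 (adjusted p = 0.763). KRT80 and KRT7 are neighbours on chromosome 12 with 0 protein-coding genes between them, and clone 2 was the lowest for KRT7 while clone 3 was the lowest for KRT80.

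Vimentin had signals of 14.06, 14.28 and 14.09 in knockdown clones 1, 2 and 3, against 14.31, 14.24 and 14.30 in control clones 1, 2 and 3, on its brightest probe set. Clones 1 and 3 lay below all controls and clone 2 lay among them. The level was 14.14 ± 0.12 in knockdown and 14.28 ± 0.04 in control clones, a difference of −0.14 (SE 0.09, adjusted p = 0.579) or 90.8% of the control signal, and the 95% interval ran from 78.0% to 106%. The brightest probe set on any array read 14.8, so vimentin was close to the top of the scale, where array signals are compressed. The second VIM probe set, at 4.63 ± 0.07 in knockdown and 4.60 ± 0.17 in control clones, lay in the range of the leukocyte markers and differed by 0.03 (SE 0.11, adjusted p = 0.943). With the mean of both probe sets the difference of VIM was −0.056 (adjusted p = 0.790).

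**Figure D3:**
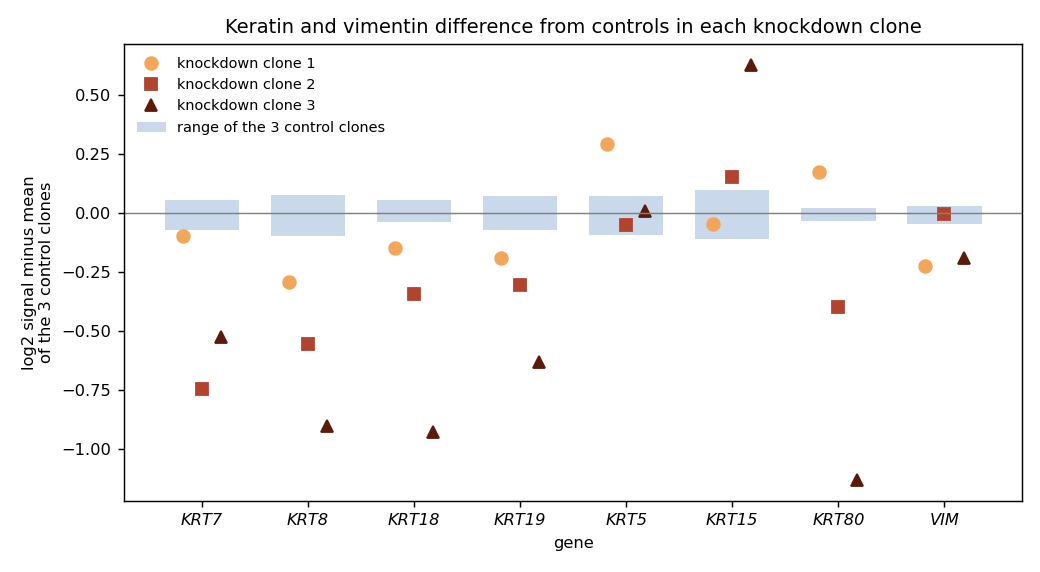
Log2 signal of each knockdown clone minus the mean of the 3 control clones, by gene, with the range of the control clones as a shaded box. Clone 3 lies lowest for KRT8, KRT18, KRT19 and KRT80 and highest for KRT15, and the knockdown points spread more widely than the box for each gene.

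The spread among knockdown clones exceeded that among control clones for each of the 8 genes. Ranges among knockdown clones ran from 0.22 (VIM) to 1.30 (KRT80), against 0.05 (KRT80) to 0.21 (KRT15) among control clones. This is common on these arrays: 76.7% of all genes had the larger SD in knockdown clones, with a median SD of 0.16 in knockdown and 0.08 in control clones. With 1 array for each clone, a difference between clones cannot be told apart from a difference between arrays. Clone 3, the lowest for KRT8, KRT18, KRT19 and KRT80, also had the lowest WASF3 level, at 23.8% of the control mean. Clone 2 kept more WASF3 than clone 1 (57.5% against 43.8%) and had the lower level of these 4 keratins. KRT7 was lowest in clone 2 instead. The knockdown signals of WASF3 (5.40, 5.80 and 4.52) all lay within the range of the leukocyte markers (3.23 to 6.30). These percentages and their order are therefore close to background. Whether WASF3 and keratin levels go together was not tested.

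The knockdown clones had the higher 3′ minus 5′ index and the lower luminal keratin signals. Among the knockdown clones, clone 1 had the highest index (2.11, against 1.62 and 1.66 in clones 2 and 3) and the luminal keratin levels closest to the controls. With the index as a covariate the median of the 4 luminal keratins was −0.83, and 0 of the 13 probe sets passed. The differences that then grew in size by over 1.5 times were those of KRT7 (−0.85), KRT18 (−0.82), KRT80 (−1.17) and KRT15 (0.63). Those of KRT5 and VIM changed sign, from 0.08 to −0.19 and from −0.14 to 0.0017. Adjusted p of all these genes in that limma fit ran from 0.250 to 0.998.

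Luminal breast markers outside the keratins had array medians of 6.51 to 7.76 in knockdown and 7.39 to 7.53 in control clones, with a median difference of −0.25 over 11 genes. Among them MUC1, a luminal membrane mucin, fell by 1.24 (SE 0.09, adjusted p = 0.00785), where 0.420% of all genes fell, and 0 rose. At an unadjusted p under 0.05, 4 of the 11 were lower, where 7.67% of all genes were, and 0 were higher, where 9.11% were. In the same 4, MUC1, the secreted trefoil factors TFF1 and TFF3 and the pioneer factor FOXA1, the groups did not overlap. Across all genes 12.6% were lower without overlap. Those after MUC1 are named after their values were seen. Of the 11 markers, 8 had lower and 3 had higher means in knockdown clones, the latter by up to 0.50 and 0 of them without overlap. TFF1 had signals of 10.52, 9.40 and 7.71 in knockdown clones 1, 2 and 3, against 12.06, 12.18 and 12.23 in control clones 1, 2 and 3. Its difference of −2.95 (SE 0.60, adjusted p = 0.0895) was the lowest of the list, and knockdown clone 3 was its lowest clone, as for KRT8, KRT18 and KRT19. TFF3 differed by −1.73 (SE 0.47, adjusted p = 0.160) and FOXA1, which was below the leukocyte median, by −0.26 (adjusted p = 0.352).

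Of 7 basal breast markers 0 passed in limma (0 at an unadjusted p under 0.05), and KRT14, the usual partner of KRT5, averaged 3.34, at the low end of the leukocyte range. The receptor EGFR gave 0.52 (SE 0.24, adjusted p = 0.393), without overlap between the groups and with this sign on 6 of its 9 probe sets. Knockdown clones 1, 2 and 3 differed from the control mean of EGFR by 0.12, 0.30 and 1.14. The integrin ITGB4 gave −0.80 (SE 0.43, adjusted p = 0.473) with overlapping groups. Of 9 fibroblast markers 0 passed (0 without adjustment), of 10 mesenchymal line markers 0 passed (1 lower and 0 higher without adjustment) and of 7 melanocytic markers 0 passed (1 lower and 1 higher without adjustment). Of all genes 7.67% were lower and 9.11% higher without adjustment. Of the mesenchymal line markers, LGALS1, a galectin, differed by −0.15 (adjusted p = 0.486) and FN1, the matrix protein fibronectin, by −0.66 (adjusted p = 0.544). Of the melanocytic markers, MITF, the master factor of pigment cells, read 8.48 ± 0.50 in knockdown and 7.66 ± 0.05 in control clones without overlap (0.82, SE 0.23, adjusted p = 0.166). This sign held on 2 of the 3 probe sets of MITF. SOX10 differed by −0.22 (adjusted p = 0.291). The fibroblast markers PDGFRB and COL1A1 differed by 0.09 and −0.05 (adjusted p = 0.789 and 0.896), and the leukocyte markers CD3E and ITGAM by −0.12 and −0.13 (adjusted p = 0.684 and 0.691). The sign given held on 1 of 5 probe sets of COL1A1 and on 1 of 2 of ITGAM. The part of these markers and of RNA quality in the keratin values was not tested further.

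The start regions of KRT8, KRT5 and VIM are shown because these genes stand for the luminal, basal and mesenchymal filament types compared above, and they are the 3 members whose window is in the RefSeq promoter table used (build GRCh38.p14). Each window runs from 250 bases before to 50 bases after the annotated start, on the strand of the gene. Other starts of these genes were not searched, and whether these clones start the genes at these windows was not tested. The KRT8 window is chr12:52926420-52926719 on the minus strand, the KRT5 window is chr12:52520345-52520644 on the minus strand and the VIM window is chr10:17227991-17228290 on the plus strand. Capitals mark matches to any of 4 motifs searched on both strands, which are TATAAA (the TATA box), GGGCGG (the GC box bound by SP1), CACCTG (the E2 box bound by the SNAI and ZEB repressors of epithelial genes) and TGANTCA (the AP-1 site).
KRT8: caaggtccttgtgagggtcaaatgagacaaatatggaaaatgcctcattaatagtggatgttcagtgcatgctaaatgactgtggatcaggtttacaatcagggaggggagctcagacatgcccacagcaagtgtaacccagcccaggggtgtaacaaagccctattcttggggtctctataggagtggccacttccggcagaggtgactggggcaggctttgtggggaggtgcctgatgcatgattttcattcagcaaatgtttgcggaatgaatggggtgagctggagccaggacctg
KRT5: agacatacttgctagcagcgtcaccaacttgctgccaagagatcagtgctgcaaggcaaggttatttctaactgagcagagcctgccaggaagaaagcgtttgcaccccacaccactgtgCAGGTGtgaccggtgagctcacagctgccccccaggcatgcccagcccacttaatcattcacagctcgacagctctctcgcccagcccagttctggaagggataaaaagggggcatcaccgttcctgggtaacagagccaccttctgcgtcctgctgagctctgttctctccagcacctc
VIM: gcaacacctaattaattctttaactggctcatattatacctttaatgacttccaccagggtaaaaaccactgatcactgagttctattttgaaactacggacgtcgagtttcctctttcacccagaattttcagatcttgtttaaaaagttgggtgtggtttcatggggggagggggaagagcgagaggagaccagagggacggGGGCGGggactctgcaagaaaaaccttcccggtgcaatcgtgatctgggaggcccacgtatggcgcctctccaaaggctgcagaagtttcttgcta
The VIM window held 1 GC box, from 46 to 41 bases before the start, a motif found in 45.0% of the 35116 promoter windows of this length. The KRT5 window held 1 E2 box, from 130 to 125 bases before the start, a motif found in 20.6% of windows. The KRT8 window held none of the 4 motifs, of which TATAAA occurs in 11.5% and TGANTCA in 7.71% of windows. The GC content was 50.7%, 56.3% and 48.0% for the windows of KRT8, KRT5 and VIM, against a median of 58.7% over all windows.

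Among the other keratins, 37 of 46 listed genes were measured and 7 had a mean log2 level of at least 5. KRT10, the type I keratin of suprabasal epidermis, was the one above 7, at a mean of 11.1. In limma 0 of the 37 passed, where 0.738% of all genes passed, and at an unadjusted p under 0.05 there were 3 lower and 1 higher, where 7.67% and 9.11% of all genes were. The named members were KRT83, a hair keratin, at 5.70 ± 0.14 in knockdown and 5.97 ± 0.06 in control clones (−0.27, SE 0.10, adjusted p = 0.284), KRT85, another hair keratin (−0.16, adjusted p = 0.470), KRT9 (0.13, adjusted p = 0.659) and KRT16 (0.17, adjusted p = 0.672). All 4 lay within the leukocyte range. The 12 hair keratins measured in these lists had a median difference of −0.16 and mean levels from 3.02 to 5.84, and none lay above the leukocyte range. Of them 10 had lower and 2 had higher means in knockdown clones. Without overlap 5 were lower and 1 was higher, where 12.6% and 12.1% of all genes were. At an unadjusted p under 0.05, 3 were lower and 0 higher. Separation of the groups was thus also seen at background levels.

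Of the other intermediate filament proteins, BFSP1, the filensin of the lens beaded filament, rose by 0.82 on the log2 scale. Its signals were 6.95, 7.13 and 7.33 in knockdown clones 1, 2 and 3, against 6.35, 6.38 and 6.23 in control clones 1, 2 and 3. The change passed (SE 0.12, adjusted p = 0.0430 in limma). Of the 16 listed genes 1 rose and 0 fell, where 0.319% of all genes rose and 0.420% fell. For BFSP1, control clones 1 and 2 lay just above the leukocyte range and control clone 3 just inside it. At an unadjusted p under 0.05, 4 were lower and 1 (BFSP1) was higher, where 7.67% and 9.11% of all genes were. The 4 were the neural progenitor filament NES (−0.62), IFFO2 (−0.53) and the lamins LMNB2 (−0.49) and LMNA (−0.40), named after their values were seen. The list median was −0.001, against −0.01 for all genes.

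Filament linkers and desmosome genes gave a mixed picture. Of 10 plakins and linkers 0 passed in limma. At an unadjusted p under 0.05, 4 were lower and 1 was higher, where 7.67% and 9.11% of all genes were. Their median was −0.14, with 6 means lower and 4 higher in knockdown clones. PLEC, the plectin that ties keratin and vimentin filaments to other structures, read 9.50 ± 0.19 in knockdown and 9.90 ± 0.06 in control clones (−0.41, SE 0.12, adjusted p = 0.179). DST, a plakin of the hemidesmosome, gave 0.42 (SE 0.11, adjusted p = 0.157), with this sign on 7 of its 10 probe sets. DSP, the desmoplakin that anchors keratins at desmosomes and was named after its values were seen, read 10.02, 7.96 and 7.59 in knockdown clones 1, 2 and 3, against 9.87, 9.85 and 10.09 in control clones 1, 2 and 3. Knockdown clone 1 lay among the controls for DSP, and clones 2 and 3 lay far below them. The difference of DSP was −1.42 (SE 0.56) and did not pass (adjusted p = 0.317 in limma).

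Of 13 desmosome genes 0 passed. At an unadjusted p under 0.05, 2 were lower and 2 higher, where 7.67% and 9.11% of all genes were. The desmosomal cadherin DSG2 gave −0.41 (SE 0.12, adjusted p = 0.178) and the plakophilin PKP4 gave 0.41 (SE 0.09, adjusted p = 0.0945). The 4 hemidesmosome genes measured all had lower means in knockdown clones, as did 10362 of all 19775 genes, and their median was −0.61. At an unadjusted p under 0.05, 2 were lower and 0 higher, beside the same shares of all genes. In limma 1 of the 4 fell and 0 rose, where 0.420% of all genes fell and 0.319% rose. This was LAMB3, a chain of the laminin to which hemidesmosomes bind, at 10.24, 9.95 and 10.12 in knockdown clones 1, 2 and 3, against 10.98, 11.01 and 11.05 in control clones 1, 2 and 3 (−0.91, SE 0.10, adjusted p = 0.0311). The calls of BFSP1 and LAMB3 held without knockdown clone 1 or 3 and were lost when any of the other 4 clones was left out, with adjusted p up to 0.279 and 0.258. That of MUC1 held when any knockdown clone was left out and was lost when any control clone was, with adjusted p up to 0.111. All 3 calls were lost once the RNA degradation index entered the fit (adjusted p = 0.173 for MUC1, 0.184 for LAMB3 and 0.195 for BFSP1), as they were with the replicate number as a block (0.0970, 0.152 and 0.169). Most calls of the series were lost in these fits. Of all probe sets, 1 was called with the index and 6 with the block, against 305 in the main fit. Without knockdown clone 2 the number was 33, and without a control clone it was 3 to 5. These losses are therefore not particular to the 3 genes.

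**Figure D4:**
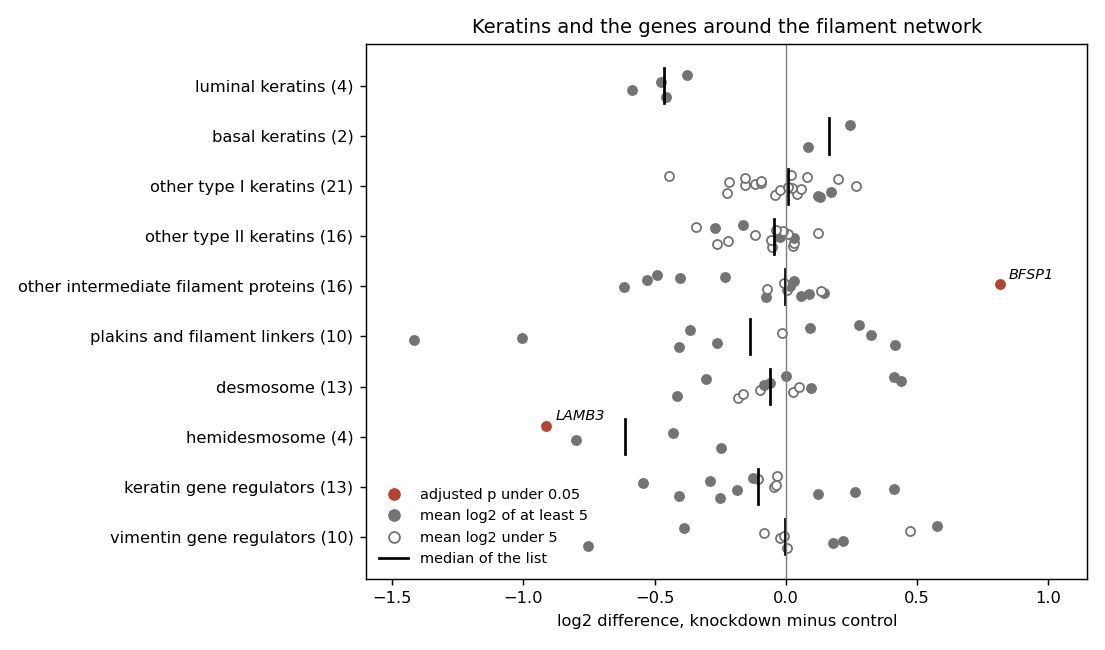
Log2 difference (knockdown minus control) of each measured gene in the keratin lists and in lists of other filament, linker, junction and regulator genes, with the list median as a black line, genes with a mean under 5 as open circles and genes that passed in red. BFSP1 and LAMB3 passed, and the 4 luminal keratins lie between −0.58 and −0.38.

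Among 13 measured regulators of keratin genes 0 passed. At an unadjusted p under 0.05, 2 were lower and 1 higher, where 7.67% and 9.11% of all genes were. The epithelial ETS factor ELF3 read 6.83 ± 0.21 in knockdown and 7.37 ± 0.10 in control clones (−0.54, SE 0.13, adjusted p = 0.116). The grainyhead factor GRHL1 gave 0.41 (SE 0.14, adjusted p = 0.248). Among 10 regulators of vimentin 0 passed, with 2 lower and 2 higher at an unadjusted p under 0.05, beside the same shares of all genes. SP1, which binds the GC box, gave −0.39 (SE 0.09, adjusted p = 0.103) and STAT3 gave 0.58 (SE 0.17, adjusted p = 0.189). Without knockdown clone 3, GRHL1 and STAT3 passed in limma (adjusted p = 0.0395 and 0.0110). That fit called 2493 of all probe sets, against 305 with all 6 clones. The markers MITF and FN1 passed in it too (adjusted p = 0.0246 and 0.0468).

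The genes whose pattern over the 6 arrays was most like that of KRT18, among 10555 genes with a mean log2 level of at least 6, were JAG1, SNN, ARHGAP31, EHF and KDM2B, with Pearson correlations of 0.999, 0.998, 0.997, 0.997 and 0.997. Those most like VIM were CORO2B, SLC44A1, TPST2, AP2M1 and MRFAP1L1, with correlations of 0.989, 0.987, 0.985, 0.985 and 0.983. These are the highest of 10555 values computed over 6 points that share the same 2 groups of clones, so they describe likeness only. Like KRT18, its 5 genes had lower means in knockdown clones, by 0.29 to 0.82, and none passed (adjusted p = 0.262 to 0.395).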

How the data were processed

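Per the submitters' processing notes, the deposited log2 values were made by the authors in Affymetrix Expression Console 1.0 using RMA, with 1 column per clone and 0 columns of other samples. RMA gives all arrays 1 distribution, and that hides any shift common to most transcripts. Scanner files were not analysed here, and array number, 3 per group, limits the precision. Names came from the platform annotation, with symbols updated in a RefSeq table of GRCh38.p14. Of them 41091 had 1 symbol, 1801 several and 11721 none. The 62 control probe sets were left out. Each gene was read from its brightest probe set.

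Differences were fitted with limma 3.58.1 in R 4.3.3 (lmFit and eBayes, group as the only term, 6 arrays, two-sided), with Benjamini-Hochberg adjustment over 54613 probe sets and a threshold of 0.05. The fit was checked on simulated data. Intervals of 95% use the moderated standard error. The members and gene lists were chosen with earlier results of these data known. Genes named beside the members are, in each list, up to 3 called ones by size or otherwise the 2 with the smallest unadjusted p at a mean of at least 5, and the 5 most like KRT18 and VIM. PTPRC, KRT10, KRT14, TFF1, TFF3, FOXA1, NES, IFFO2, LMNB2, LMNA, DSP and PPL were named outside this rule, after their values were seen.

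Replicate numbers are shared between groups in the labels, and deviations of same-numbered clones from their group means correlated at −0.12, −0.13 and −0.06 over probe sets with a mean of at least 5, so the numbers were not taken as pairs.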

Additional observations from a re-analysis of the deposited data

How the results depend on the processing

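Up to 15 other settings were run for each gene, of which 6 leave out 1 clone each. Leaving out probe sets that can match several transcripts gives no value for the brightest probe sets of KRT7, KRT8, KRT18 and VIM, and the mean of all probe sets differs from the brightest one only for KRT7, KRT19 and VIM, which have several. WASF3 passed with array weights (−1.16, adjusted p = 0.0359) and without knockdown clone 3 (adjusted p = 0.0175), and ranged from −1.63 to −0.99 when single clones were left out. The corresponding ranges were −0.64 to −0.31 for KRT7, −0.73 to −0.43 for KRT8, and −0.021 to 0.15 for KRT5, which turned negative without knockdown clone 1 (−0.021) and, once the 3′ minus 5′ index entered as a covariate, at −0.19. Without knockdown clone 1, KRT7 and KRT8 passed, in a fit that called 1.2% of all probe sets lower. The number of member probe sets called ranged from 0 to 2 when single clones were left out. VIM came to 0.0017 with the index as a covariate. Of the dim probe sets, the second of VIM gave −0.045 with the index and −0.042 to 0.12 when single clones were left out, the dimmest of KRT7 gave −0.17 to 0.094 then, and the second of KRT19 gave −0.24 to 0.13. The median of the luminal keratins was −0.83 and that of the 8 genes −0.68 with the index. The median of the 8 genes was −0.24 with the mean of all probe sets of a gene and ranged from −0.55 to −0.18 when single clones were left out. The replicate block left KRT8 at −0.58 (adjusted p = 0.253) and called 0 member probe sets and 6 of all probe sets, against 305 without it. Over all probe sets the calls numbered 115 with an intensity trend, 1411 with array weights, 1 with the index and 3 to 2493 when single clones were left out. The cause of these changes was not tested. Probe sets close to the leukocyte markers limit what can be said of KRT5, the hair keratins and the WASF3 left in each knockdown clone.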
